A study of Mus musculus with 6 samples.

Results

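The 43 genes described here encode the proteasome: the structural subunits of its core and cap, its regulators and the chaperones that assemble it. The rule that picked them uses names and no measured value: every symbol in the table that begins with Psma to Psmg and a number, without the catalytic core subunits Psmb5 to Psmb10 and the interferon-inducible activator genes Psme1 and Psme2. That left 43 of the 22105 genes in the table. Of these, 40 are subunits, regulators or assembly chaperones. Psme2b is a copy of the excluded Psme2. Psmc3ip, which encodes a cofactor of meiotic and homologous recombination, and Psme3ip1, which encodes a partner of the PA28γ activator, carry the name without being proteasome subunits.

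RNA came from 4T1, a mouse mammary carcinoma cell line. A nanoparticle group (3 libraries) was exposed for 24 h to CM-PEG-PLGA@DOX/R848, particles loaded with doxorubicin, an anthracycline that poisons topoisomerase II, and with R848 (resiquimod), an agonist of the RNA receptors TLR7 and TLR8. Their amount corresponded to 2 µg/mL of doxorubicin. A control group (3 libraries) received phosphate-buffered saline (PBS) for the same time. All 6 libraries come from 1 cell line with no genetic change named in the labels. Nothing in the labels ties the libraries of a group to separate cultures, so p-values measure the spread between these libraries, which may be technical.

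The 26S proteasome degrades proteins tagged with ubiquitin. Its 20S core is a barrel of α and β rings that encloses the proteolytic sites. The 19S cap sits on the barrel: a base with a ring of ATPases unfolds the substrate, and a lid removes the ubiquitin chain. Other caps, PA28γ and PA200, open the same barrel without ubiquitin, and dedicated chaperones put both particles together. In mammalian cells the transcription factor NFE2L1 is known to raise many proteasome genes together when proteasome activity falls, and rapidly growing tumour cells depend on proteasome capacity.

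The deposited values were taken as FPKM (fragments normalised to transcript length and library size), a scale per length. Levels and ranks of different genes can be compared on it only as far as the lengths used are right, and these were not given. Column sums ran from 421544 to 425231 for PBS and from 468387 to 472870 for nanoparticles, and the depth in reads is unknown. The epithelial markers Krt8 and Krt18 were abundant (group means of 215 to 685 FPKM), while Epcam and Cldn7 stayed under 1 FPKM in every library. Among 8 myeloid markers, Csf1r and Mpeg1 rose to 1.45 and 1.77 FPKM on average, Cd14 fell from 11.9 to 7.13 FPKM, and the other 5 never reached 1 FPKM; Ptprc and Adgre1 were listed at 0 in every PBS library. Summed, the 8 myeloid markers gave 11.2 to 12.6 FPKM (PBS) and 9.81 to 13.0 FPKM (nanoparticle). Cd14, the only one of them that fell, made up most of each sum. The 5 under 1 FPKM were higher in every nanoparticle library than in any PBS library. Their means with PBS and nanoparticles were 0 and 0.527 FPKM for Ptprc, 0 and 0.0633 for Adgre1 and 0.0302 and 0.284 for Lyz2. For Itgam they were 0.00691 and 0.140 FPKM, and for Cx3cr1 0.0246 and 0.186. All 6 lymphocyte markers stayed under 1 FPKM, with sums of 0 to 0.138 FPKM and 0.565 to 0.709 FPKM. Of the fibroblast and endothelial markers, Pdgfra (20.5 to 4.76 FPKM) and Cdh5 (8.42 to 1.54 FPKM) fell, and the others were under 1 FPKM. Their part in the results below was not tested.

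Most proteasome genes were higher after nanoparticle exposure, but the rise was uneven, and a few central subunits went down. Of the 43 genes, 41 reached the level needed for testing (at least 1 FPKM in 3 or more libraries), and all 41 were above 6 FPKM in every library. Of the 41, 33 rose, 7 fell and 1 did not pass the test (limma on log2(FPKM + 1), adjusted p under 0.05 over all 10863 tested genes). Over all tested genes 40.5% were called higher and 46.0% lower. The libraries of the groups did not overlap for any of these 33 and 7 genes; over all tested genes this held for 40.8% (higher) and 46.4% (lower). The median log2 fold change was 0.50 for the proteasome genes and -0.06 for all tested genes. A rise of at least 2-fold on this scale was seen for 9 members, against 10.2% of all tested genes. These were Psme3, Psmc3ip, Psmc5, Psmd4, Psmb3, Psmc3, Psme2b, Psmd8 and Psmd13. The 7 that fell were Psme4, Psmd14, Psmg1, Psmb1, Psmd11, Psma5 and Psmd10. Without the 3 genes that are no subunit, regulator or chaperone of their own, 30 of 38 rose and 7 fell. In bulk RNA a change in the mix of cells cannot be told apart from a change in the RNA of each cell.

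Rescaling to a common sum (TPM) shifted the median of all tested genes by -0.13. The proteasome median then stood at 0.36, which is 0.55 above that of all tested genes, against 0.56 above it on the FPKM scale; 30 members were called higher and 8 lower. In a span-adjusted fit, with the trend of each library along genomic span and exonic length taken out, more calls moved: 26 members were called higher, 10 lower and 5 were not called, with a median of 0.25. In that fit 37.6% of all tested genes were higher and 46.5% lower, their median was -0.08, and the members' median stood 0.33 above it.

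**Figure D1:**
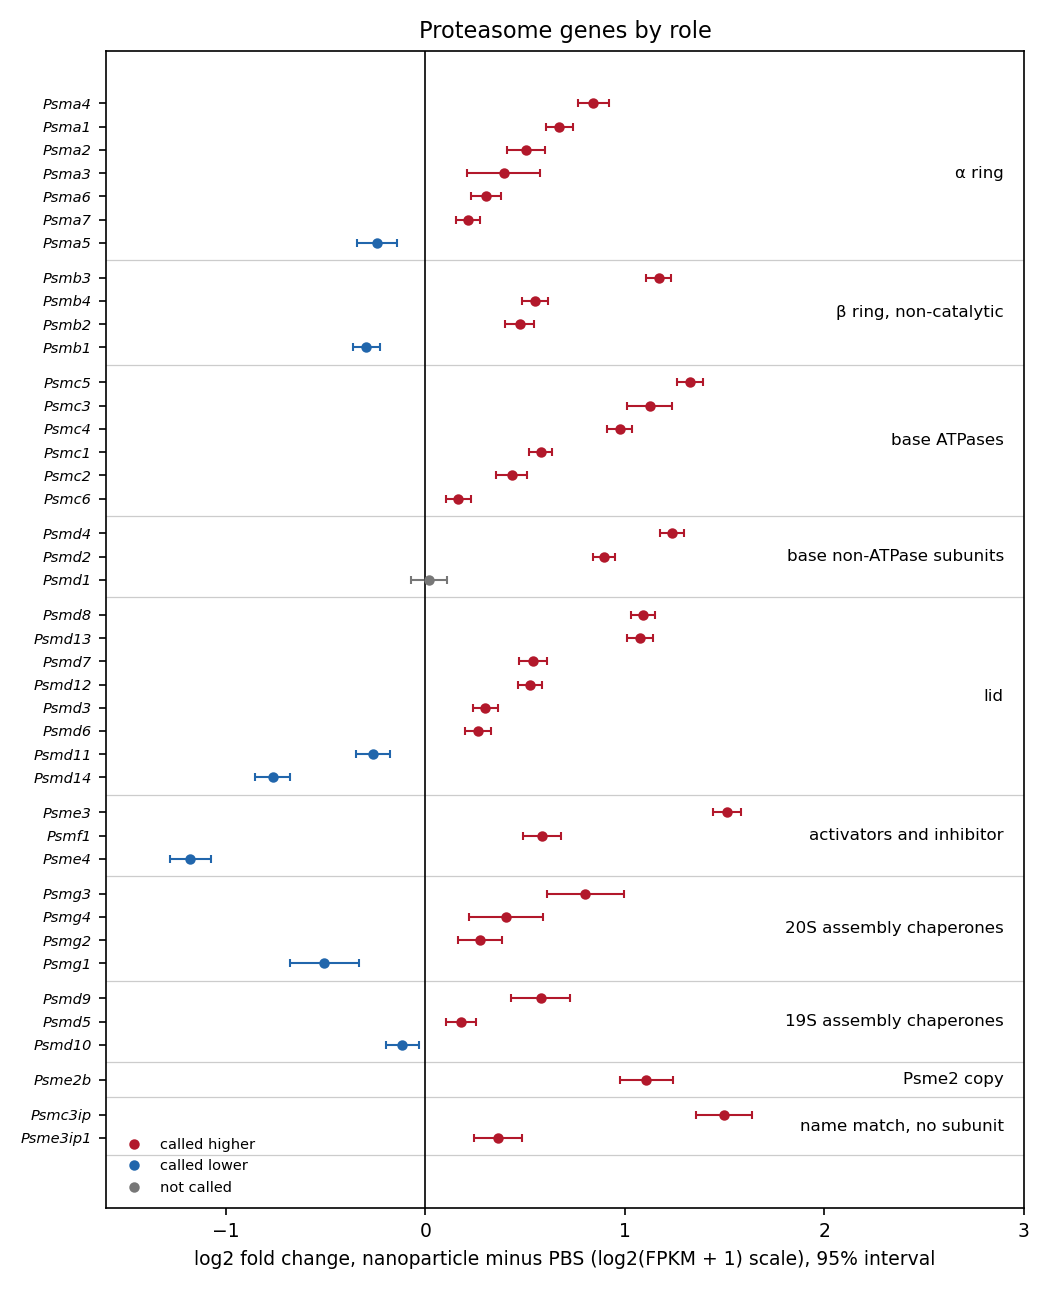
Log2 fold change of the 41 tested genes (horizontal axis, nanoparticle minus PBS on the log2(FPKM + 1) scale) with 95% intervals, grouped by role and coloured by call. Every group of subunits has most points to the right of 0, the base ATPases all 6, while single members such as Psmd14 (-0.77) and Psme4 (-1.18) lie to the left.

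The promoters of the genes with some of the strongest changes in each direction are shown as a description, and shared control of these genes was not tested. Each line holds the 160 bases before the annotated start, 5′ to 3′ on the strand of the gene, from RefSeq (build GRCm38.p6). Psme3 (chr11:101316053-101316212, plus strand) had the largest rise of all members on the log2(FPKM + 1) scale. Psmd4 (chr3:95042615-95042774, minus strand), Psmb3 (chr11:97703274-97703433, plus strand) and Psmc5 (chr11:106256025-106256184, plus strand) had the largest rises of the non-ATPase base subunits, the β ring and the base ATPases. Psmd14 (chr2:61711534-61711693, plus strand) and Psme4 (chr11:30771615-30771774, plus strand) had the deepest falls on that scale. Capitals mark matches, on either strand, to the ETS site CCGGAAG, the CCAAT box CCAAT, the E-box CACGTG and the core of the antioxidant response element TGACNNNGC, to which NFE2L1 and NFE2L2 bind.

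Psme3: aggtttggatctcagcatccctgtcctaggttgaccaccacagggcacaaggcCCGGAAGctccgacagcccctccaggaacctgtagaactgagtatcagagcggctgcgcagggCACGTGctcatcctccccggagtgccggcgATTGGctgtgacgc
Psmd4: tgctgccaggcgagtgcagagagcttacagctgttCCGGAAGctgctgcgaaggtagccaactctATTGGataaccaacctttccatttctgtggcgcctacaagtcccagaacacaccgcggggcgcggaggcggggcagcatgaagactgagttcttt
Psmb3: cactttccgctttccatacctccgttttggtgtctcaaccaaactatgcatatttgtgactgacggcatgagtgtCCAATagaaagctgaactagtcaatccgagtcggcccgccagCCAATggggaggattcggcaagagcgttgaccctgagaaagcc
Psmc5: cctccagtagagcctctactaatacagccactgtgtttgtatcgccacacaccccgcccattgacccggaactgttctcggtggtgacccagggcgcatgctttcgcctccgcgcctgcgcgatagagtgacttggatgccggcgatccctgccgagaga
Psmd14: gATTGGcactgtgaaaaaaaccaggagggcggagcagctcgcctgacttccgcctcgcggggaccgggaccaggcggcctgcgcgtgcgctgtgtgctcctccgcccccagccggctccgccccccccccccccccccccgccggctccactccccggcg
Psme4: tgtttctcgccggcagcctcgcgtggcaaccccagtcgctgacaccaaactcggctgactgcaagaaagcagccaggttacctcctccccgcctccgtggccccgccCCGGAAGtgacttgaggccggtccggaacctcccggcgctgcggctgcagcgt

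In these stretches Psme3 holds an ETS match, an E-box and a CCAAT box read on the opposite strand (ATTGG). Psmd4 holds an ETS match and ATTGG, Psmb3 CCAAT at 2 places, and Psmc5 none of the 4 motifs. The falling genes hold 1 match each, CCAAT (read as ATTGG) in Psmd14 and ETS in Psme4. The 250 bases before the start were searched in 39 promoter windows belonging to 36 of the 43 genes. ETS matches were in 14 of the 39 windows (35.9%), against 14.4% of the windows of tested genes and 6.91% of all 32851 windows. They were in 11 of 31 windows of genes that rose and in 3 of 6 windows of genes that fell. CCAAT was in 15 of the 39 (38.5%, against 35.8% of tested-gene windows and 33.8% of all windows) and the E-box in 4 (10.3%, against 8.32% and 6.02%). The antioxidant response core was in 3 windows (7.69%, against 11.8% and 10.2%), those of Psmc6, Psmd12 and Psmd9. Matches to different motifs shared bases in 0 of the 39 windows. A match is a description of letters in a window, not a measured binding site.

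The 7 α subunits form the outer rings of the barrel and gate its entrance. Of these, 6 rose and 1 fell, with a median log2 fold change of 0.39. Psma4 (α3) had the largest rise on the log2(FPKM + 1) scale, from 71.3, 75.6 and 69.0 FPKM with PBS to 131, 129 and 129 FPKM with nanoparticles. The groups were far apart, and the log2 fold change was 0.84 with a standard error of 0.034 (limma adjusted p = 9.72e-09). Psma5 (α5) went the other way, from 93.3, 101 and 93.7 FPKM to 76.2, 84.7 and 81.7 FPKM. All 3 nanoparticle libraries were below all PBS libraries, and the log2 fold change was -0.24 (standard error 0.044, limma adjusted p = 0.000574). Psma1 rose by 0.67, Psma2 by 0.50, Psma3 by 0.39, Psma6 by 0.30 and Psma7 by 0.21 on the log2 scale. Psma3 lost its call in the span-adjusted fit (0.17, limma adjusted p = 0.0771). Psma7 (α4), the most abundant subunit with PBS at 172 ± 2.92 FPKM (SD, n = 3), reached 200 ± 4.54 FPKM with nanoparticles. Its direction turned to -0.18 in the span-adjusted fit, and it lost its call on the TPM scale (0.06).

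The non-catalytic β subunits complete the inner rings around the proteolytic sites. Psmb2, Psmb3 and Psmb4 rose and Psmb1 fell. Psmb3 (β3) was at 76.2, 74.7 and 74.6 FPKM with PBS and at 171, 165 and 175 FPKM with nanoparticles. That is a ratio of means of 2.27 and a log2 fold change of 1.17 (standard error 0.028, limma adjusted p = 3.33e-10). Psmb1 (β6) was at 97.4, 93.3 and 98.3 FPKM with PBS and at 77.4, 77.5 and 80.02 FPKM with nanoparticles. The groups did not overlap, and the log2 fold change was -0.30 (standard error 0.030, limma adjusted p = 7.12e-06). Psmb4 (β7) rose by 0.55 and Psmb2 (β4) by 0.47. Thus the order of Psmb1 and Psmb3 was exchanged: Psmb1 was the higher of the pair in every PBS library and Psmb3 in every nanoparticle library.

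The 6 ATPases of the 19S base, which form the ring that unfolds substrates and threads them into the core, all rose, with a median log2 fold change of 0.78. Psmc5 (Rpt6) led, with 61.8, 62.3 and 65.2 FPKM in PBS libraries and 158, 159 and 163 FPKM in nanoparticle libraries. Its log2 fold change was 1.33 (standard error 0.029, limma adjusted p = 1.99e-10). Psmc6 (Rpt4) moved least, from 92.3, 93.5 and 94.6 FPKM to 104, 103 and 108 FPKM. This rise of 0.16 on the log2 scale (standard error 0.027, limma adjusted p = 0.000273) was not called on the TPM scale (0.01) and turned to -0.09 in the span-adjusted fit. Psmc3 (Rpt5) rose by 1.12, Psmc4 (Rpt3) by 0.97, Psmc1 (Rpt2) by 0.58 and Psmc2 (Rpt1) by 0.43. Psmc3 became the most abundant of all 26S subunits measured here, at 232 ± 15.0 FPKM (SD, n = 3) with nanoparticles.

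The other base subunits, Psmd1 (Rpn2) and Psmd2 (Rpn1), are the large scaffolds of the cap, and Psmd4 (Rpn10) is a receptor for ubiquitin chains. Psmd4 rose from 86.5, 90.4 and 87.9 FPKM to 206, 210 and 212 FPKM, a log2 fold change of 1.24 (standard error 0.027, limma adjusted p = 1.92e-10). Psmd2 rose from 85.5 ± 0.987 to 160 ± 1.68 FPKM (SD, n = 3), by 0.89 on the log2 scale. Psmd1 was at 38.7, 40.9 and 40.4 FPKM with PBS and at 42.4, 40.4 and 38.8 FPKM with nanoparticles. Here the groups overlapped, and the log2 fold change was 0.02 with a 95% interval from -0.07 to 0.11 (limma adjusted p = 0.682). Psmd1 was called lower on the TPM scale (-0.13) and higher in the span-adjusted fit (0.55). The scaffold pair thus diverged in FPKM: the means of Psmd2 and Psmd1 stood at 85.5 and 40.01 FPKM with PBS and at 160 and 40.5 FPKM with nanoparticles. In the span-adjusted fit the pair did not diverge, with 0.54 for Psmd2 beside 0.55 for Psmd1. Psmd2 spans 11.8 kb and Psmd1 74.8 kb.

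The lid held members that moved in both directions, with 6 of 8 higher and 2 lower. Psmd8 (Rpn12), a lid subunit added late in assembly, rose from 61.6, 60.8 and 63.5 FPKM to 133, 134 and 132 FPKM (log2 fold change 1.09, standard error 0.026, limma adjusted p = 3.68e-10). Psmd13 (Rpn9) rose by 1.08, Psmd7 (Rpn8) by 0.54, Psmd12 (Rpn5) by 0.53, Psmd3 (Rpn3) by 0.30 and Psmd6 (Rpn7) by 0.26. The last of these, Psmd6, turned to -0.11 in the span-adjusted fit, and Psmd3 to an uncalled -0.03. Psmd14 (Rpn11), the deubiquitinase that cuts chains from the substrate as it enters, fell from 64.5, 60.1 and 63.0 FPKM to 36.9, 34.9 and 37.3 FPKM. The libraries were far apart, and the log2 fold change was -0.77 (standard error 0.038, limma adjusted p = 3.74e-08). Psmd7, its partner in the lid, had the opposite direction, from 71.5 ± 2.58 to 104 ± 1.21 FPKM (SD, n = 3). Psmd11 (Rpn6), which clamps the cap to the core, fell from 38.4, 41.2 and 40.2 FPKM to 33.8, 31.9 and 33.6 FPKM (log2 fold change -0.26, standard error 0.038, limma adjusted p = 0.000117). In the span-adjusted fit Psmd14 was still called lower, at -0.17, and Psmd11 was not called (-0.07).

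**Figure D2:**
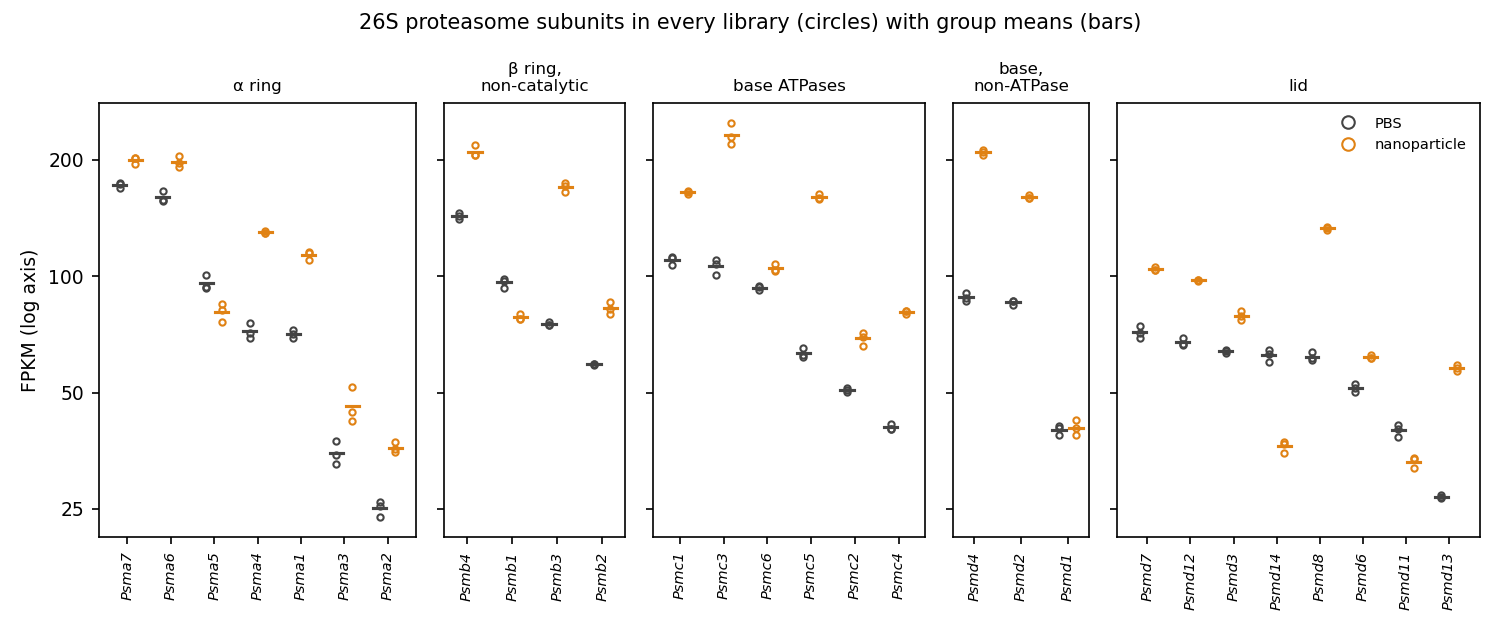
FPKM (vertical log axis) of the 28 structural 26S subunits in each PBS and nanoparticle library, ordered by PBS mean within each role; circles are libraries and bars group means (3 libraries per group). Most subunits have all orange circles above the grey ones, Psmd1 overlaps, and Psma5, Psmb1, Psmd11 and Psmd14 lie below.

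Subunits of 1 complex are needed in fixed proportions as proteins, so their transcripts were also set against each other within each library. Ratios between subunits do not depend on library scaling, but they do depend on the lengths used. Median levels in FPKM depend on both. The 28 structural subunits summed to 0.498% to 0.511% of the total FPKM of all genes with PBS and to 0.668% to 0.686% with nanoparticles. Their median level was 67.7 to 69.8 FPKM and 100 to 101 FPKM. The spread among subunits was wider with nanoparticles: the SD of log2(FPKM + 1) over the 28 genes was 0.690 to 0.693 in PBS libraries and 0.839 to 0.854 in nanoparticle libraries. The widening was seen in the lid (0.469 to 0.473 against 0.692 to 0.730), the base non-ATPase subunits (0.619 to 0.656 against 1.21 to 1.29), the β ring (0.528 to 0.545 against 0.701 to 0.736) and the ATPases (0.569 to 0.602 against 0.646 to 0.684). In the α ring it was narrower (1.02 against 0.926 to 0.983). These spreads are descriptions over genes, with no test and no adjustment for span.

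Relative to the median of the other 26S subunits in the same library, Psmd14 stood at 0.932, 0.828 and 0.913 with PBS and at 0.356, 0.339 and 0.359 with nanoparticles. It thus moved from close to the typical subunit to rank 26 of the 28 by mean level. Psmc5 went from 0.894, 0.858 and 0.944 to 1.62, 1.64 and 1.66. Psma5 and Psmb1 were above the median in every PBS library and below it in every nanoparticle library, Psma5 going from 1.42 ± 0.077 to 0.781 ± 0.043 and Psmb1 from 1.43 ± 0.046 to 0.756 ± 0.011 (SD, n = 3). Psmd1, whose own level did not pass the test, stood at 0.559, 0.563 and 0.586 with PBS and lower, at 0.410, 0.393 and 0.373, with nanoparticles. The ratios were not adjusted for span. In the span-adjusted fit the log2 fold change was 0.55 for Psmd1 and -0.17 for Psmd14, beside a median of 0.25 for the tested members. Psmc1, Psmb4, Psmd7 and Psmd12 kept close to their place, for example Psmd7 at 1.06 ± 0.058 and 1.07 ± 0.015. By mean level the lowest subunit was Psma2 with PBS and Psmd11 with nanoparticles.

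**Figure D3:**
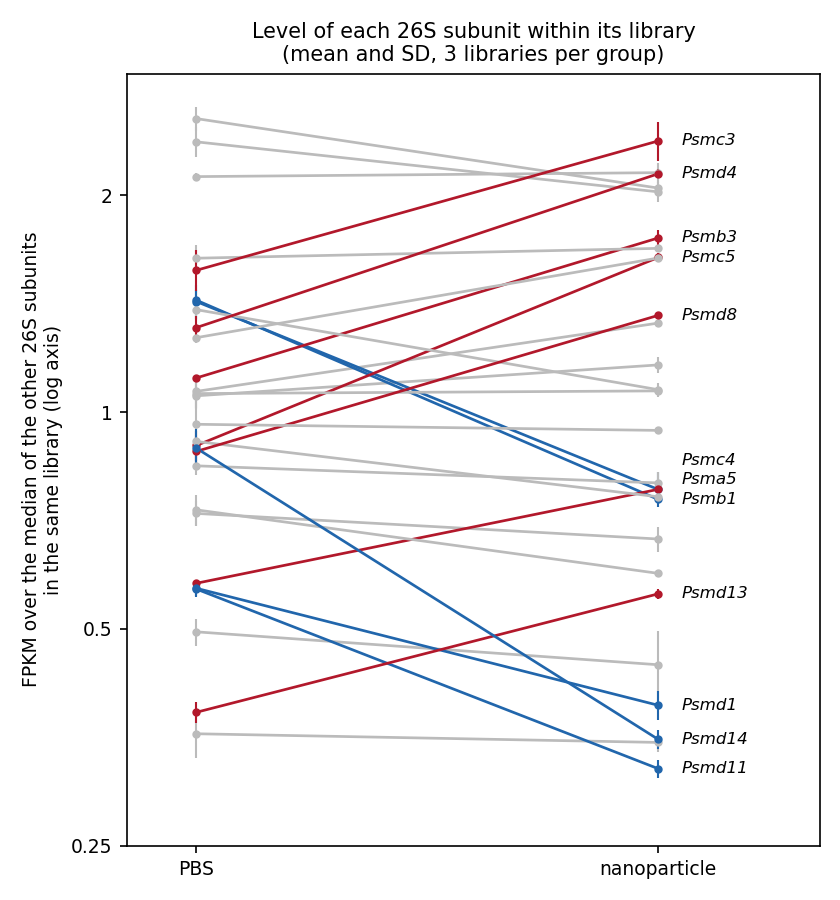
Level of each of the 28 structural 26S subunits over the median of the other subunits in the same library (vertical log axis), as mean and SD of 3 libraries, with PBS on the left and nanoparticle on the right. Red and blue lines are subunits whose ratio rose or fell by over 1.3 times; Psmd14 dropped from 0.891 to 0.351 and Psmc5 climbed from 0.899 to 1.64.

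The alternative activators moved in opposite directions. On the log2(FPKM + 1) scale they were the extremes of the members. Psmc3ip stood slightly above Psme3 on the TPM scale (1.40 against 1.38). In the span-adjusted fit Psmd9 (1.15) and Psmg1 (-0.95) were the extremes. That fit used GENCODE spans, and the value of Psmd9 rests on a span of 80.7 kb, which is 21.9 kb in RefSeq. Psme3 encodes PA28γ, a nuclear ring that opens the core for ubiquitin-independent breakdown of proteins such as cell cycle inhibitors. It rose from 27.6, 28.3 and 28.5 FPKM to 81.9, 79.9 and 84.2 FPKM, a ratio of means of 2.92 (log2 fold change 1.51, standard error 0.031, limma adjusted p = 1.53e-10). Psme4 encodes PA200, a large nuclear cap linked to the breakdown of acetylated histones. It fell from 16.3, 16.9 and 15.8 FPKM to 6.83, 6.66 and 6.46 FPKM, a ratio of means of 0.407 (log2 fold change -1.18, standard error 0.046, limma adjusted p = 7.02e-09). In the span-adjusted fit Psme4 was still called lower, at -0.43, and Psme3 higher, at 1.13. Psmf1, which encodes the inhibitor PI31, rose from 8.27, 8.34 and 8.66 FPKM to 13.2, 13.2 and 13.0 FPKM (log2 fold change 0.58, standard error 0.042, limma adjusted p = 6.12e-07). The excluded relatives Psme1 and Psme2, the interferon-inducible PA28α and PA28β, rose by 0.69 and 1.08 on the log2 scale.

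The chaperones Psmg1 to Psmg4 (PAC1 to PAC4) guide the assembly of the α ring, Psmg1 working as a pair with Psmg2 and Psmg3 as a pair with Psmg4. The first pair split. Psmg1 fell from 22.6, 21.6 and 21.02 FPKM to 15.4, 16.7 and 13.1 FPKM (log2 fold change -0.51, standard error 0.075, limma adjusted p = 0.00017). Psmg2 rose from 23.7, 22.4 and 22.1 FPKM to 26.1, 29.5 and 27.5 FPKM (log2 fold change 0.27, standard error 0.049, limma adjusted p = 0.000495). Neither pair of groups overlapped, and Psmg2 lost its call at -0.10 in the span-adjusted fit. Psmg3 rose from 10.3, 10.4 and 8.77 FPKM to 15.8, 19.2 and 18.7 FPKM (log2 fold change 0.80, limma adjusted p = 1.49e-05). Psmg4 rose by 0.40, with 1 nanoparticle library high (15.0, 15.1 and 18.98 FPKM against 11.8 to 12.3 FPKM with PBS), and turned to -0.29 in the span-adjusted fit.

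The chaperones of the 19S base bind its ATPases until the cap is complete. Psmd9 (p27) rose from 9.52, 7.93 and 9.04 FPKM to 13.1, 13.7 and 14.2 FPKM (log2 fold change 0.58, standard error 0.065, limma adjusted p = 1.75e-05). Psmd5 (S5b) rose from 20.5 ± 0.372 to 23.3 ± 0.202 FPKM (SD, n = 3), by 0.18 on the log2 scale, and was not called on the TPM scale (0.03) or in the span-adjusted fit (0.06). Psmd10, which encodes gankyrin, an oncoprotein that also binds the retinoblastoma protein and the MDM2 ligase, had 28.2, 28.1 and 29.1 FPKM with PBS and 25.6, 25.8 and 27.2 FPKM with nanoparticles. Its fall of -0.12 on the log2 scale (standard error 0.037, limma adjusted p = 0.0145) was the smallest that passed, and it was lost without PBS library 3 (adjusted p = 0.0533).

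**Figure D4:**
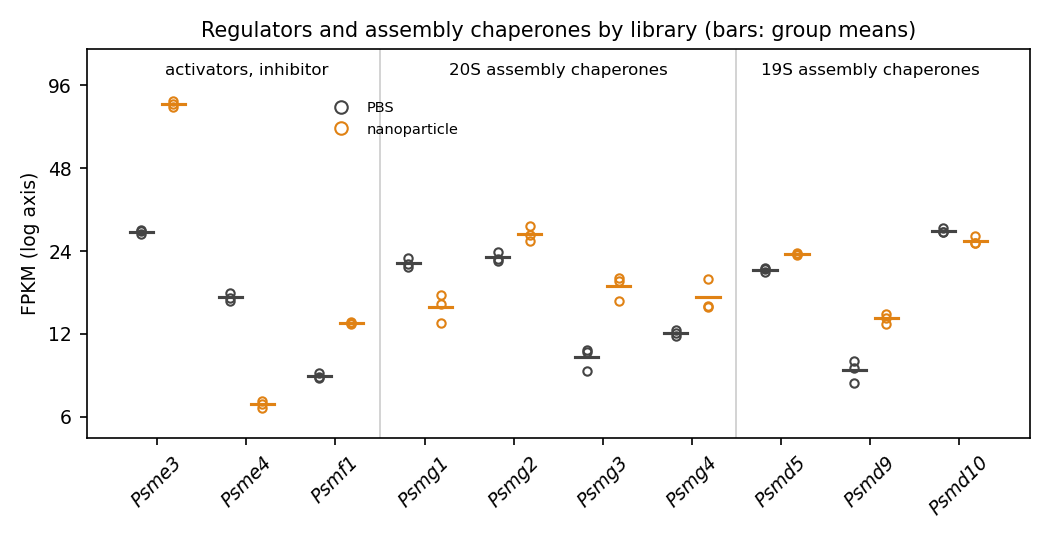
FPKM (vertical log axis) of the activators, the inhibitor and the assembly chaperones in each library; circles are libraries and bars the group means of 3 libraries. The mean of Psme3 goes from 28.1 to 82.0 FPKM and that of Psme4 from 16.3 to 6.65 FPKM, and the circles of the groups do not overlap for any gene.

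The tissue-specific subunits were at the floor. Psma8, the α subunit of the spermatoproteasome of male germ cells, was listed at 0, 0.0277 and 0 FPKM with PBS and at 0.123, 0.0444 and 0.0511 FPKM with nanoparticles. Psmb11, the catalytic subunit of the thymoproteasome of cortical thymic epithelium, was listed at 0 in every PBS library and at 0.0347, 0 and 0.0687 FPKM with nanoparticles. Neither was tested, and no fold is given.

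Among the remaining name matches, Psmc3ip rose from 10.9, 9.17 and 9.70 FPKM to 29.8, 28.4 and 31.2 FPKM (log2 fold change with a 95% interval from 1.36 to 1.64, limma adjusted p = 1.18e-08). Its exons share 385 bases with Mlx on the opposite strand, whose mean was 17.7 FPKM (PBS) and 28.6 FPKM (nanoparticle); strandedness was not given in the sources used here. Psme3ip1 rose from 19.2, 18.7 and 20.4 FPKM to 26.8, 25.7 and 23.5 FPKM (log2 fold change 0.36, standard error 0.053, limma adjusted p = 0.000125). Psme2b rose from 23.1, 20.7 and 24.7 FPKM to 50.3, 48.8 and 51.8 FPKM (log2 fold change 1.11, standard error 0.058, limma adjusted p = 8.76e-08). Its transcript is 99.4% identical to that of Psme2 over 94.9% of the shorter one, so its reads can be shared with Psme2, whose mean was 62.0 FPKM (PBS) and 132 FPKM (nanoparticle).

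Reads may also be split with near-copies, most of them pseudogenes. Of the members, 7 others had an annotated transcript elsewhere that was at least 95% identical over 50% of the shorter transcript: Psma3, Psma4, Psma5, Psmb3, Psmc1, Psmd2 and Psmd11. None of these copies has a row of its own in the table. Values of those 7 genes are therefore less certain. Exons of Psmc3, Psmd13 and Psme3ip1 also overlap expressed genes on the opposite strand: Slc39a13 by 215 bases, Sirt3 by 342 and Rspry1 by 61. Psmd9 shares 1849 exonic bases with the non-coding gene Gm26745 on the opposite strand, which has no row of its own. Psmg3 shares 280 with Gm26938 on the same strand, whose mean was 0.499 FPKM (PBS) and 0.859 FPKM (nanoparticle).

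Genomic span moved with the direction of change. Over all 10836 tested genes with a position, Spearman's rho between log2 fold change and span was -0.49, and over the 41 members -0.55 (GENCODE spans) or -0.62 (RefSeq spans). These are descriptions over genes measured in the same libraries. Psme4 (109 kb, chromosome 11, 30771726 to 30880361) and Psmd14 (88.7 kb, chromosome 2, 61711694 to 61800376), with the deepest falls, are among the longest members, while Psme3 (7.33 kb, chromosome 11, 101316213 to 101323537) and Psmc5 (6.97 kb, chromosome 11, 106256154 to 106263120) are short (GRCm38). Among tested genes under 10 kb, 60.2% were higher and 25.7% lower; of 14 members in this range, 13 rose and 1, Psmd10, fell. Between 10 and 20 kb these shares were 55.2% and 29.5%, and 11 of 12 members rose and 1, Psmg1, fell. Between 20 and 50 kb they were 39.3% and 44.5%, and 7 of 10 members rose and 3 fell. Between 50 and 100 kb, where 15.2% were higher and 73.4% lower, Psma2 and Psmd9 rose, Psmd1 did not pass and Psmd14 fell. Over 100 kb, 5.32% were higher and 89.5% lower, with a median log2 fold change of -1.10. The 1 member in this range, Psme4, fell by a similar amount (-1.18). Psma2 and Psmd9 span 61.0 and 80.7 kb in GENCODE but 12.4 and 21.9 kb in RefSeq, so their place among long genes depends on the annotation. Their values in the span-adjusted fit (0.87 and 1.15) rest on the GENCODE spans. Psmg1 (11.0 kb) and Psmd10 (8.30 kb) fell despite short spans, and in the span-adjusted fit Psmg1 stood at -0.95 and Psmd10 at -0.56.

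**Figure D5:**
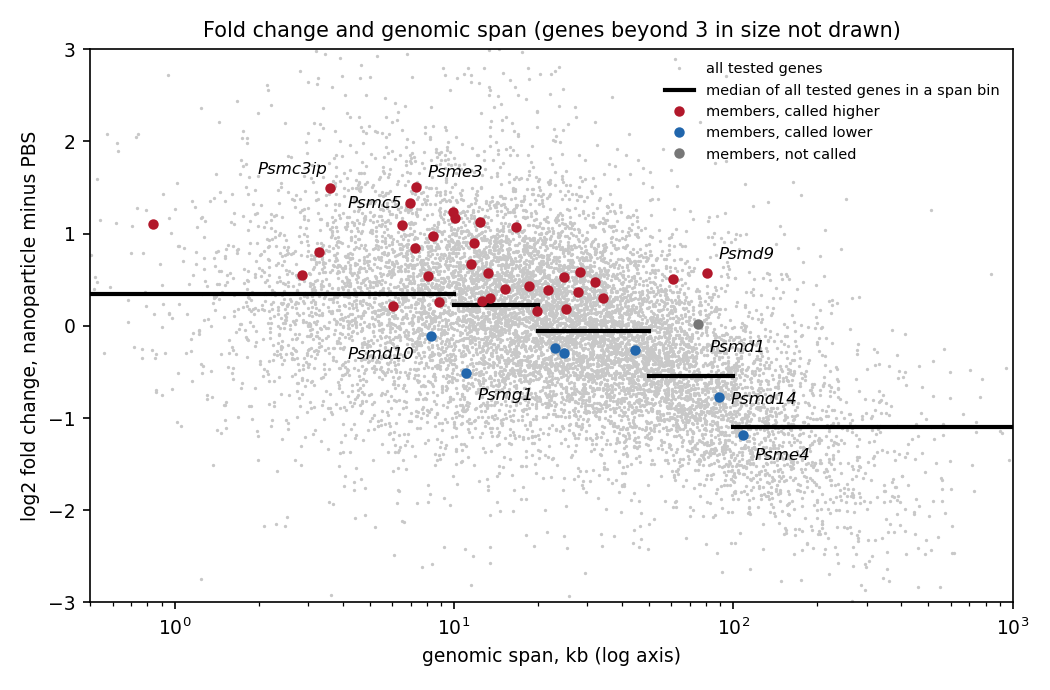
Log2 fold change (vertical axis, nanoparticle minus PBS) against genomic span in kb (horizontal log axis) for all tested genes (grey) and the 41 members (coloured by call); black bars are medians of all tested genes within 5 span ranges. The bars step down from 0.34 under 10 kb to -1.10 over 100 kb, and 31 of the 41 members lie above the bar of their range.

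The shares of all tested genes, 40.5% higher and 46.0% lower, are the background for the counts in the lists of other genes that follow. Of 14 tested partners and remaining subunits, 5 rose, 5 fell and 4 did not pass. The 3 largest rises were those of Zfand2a, a heat- and arsenite-inducible proteasome adaptor (log2 fold change 2.59), Pomp, the chaperone that completes the 20S core (1.37, from 27.5 to 72.8 FPKM), and Adrm1, the ubiquitin receptor Rpn13 (0.87). Midn and Uchl5, a deubiquitinase docked on Adrm1, also rose (0.84 and 0.32). Those that fell were Ecpas, an adaptor that ties core to cap (-1.97), the ligases Ube3a (-1.35) and Ube3c (-1.01), Txnl1 (-0.45) and the deubiquitinase Usp14 (-0.34), which lost its call in the span-adjusted fit (-0.02). Values that did not pass were 0.06 for the small lid subunit Sem1, 0.12 for Akirin2, 0.05 for Fbxo7 and 0.04 for Zfand5. Without nanoparticle library 2 the number that rose was 8, as Sem1 (0.11), Akirin2 (0.17) and Fbxo7 (0.25) were then called. Ecpas, Ube3c and Ube3a span 114, 107 and 82.8 kb. Among the excluded genes, 7 of 8 rose (largest Psmb9 at 1.299 and Psmb10 at 1.29) and Psmb7 fell by 0.23 on the log2 scale, a fall that turned to 0.09 in the span-adjusted fit.

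NFE2L1, the factor known to drive proteasome genes, is made as an endoplasmic reticulum protein that needs extraction by p97 and cutting by DDI2. Of 13 tested genes listed for this control, 4 rose, 8 fell and 1, Vcp (p97), did not pass (-0.04). On the TPM scale Vcp was called lower (-0.19). These counts mix genes of different action and give no direction for NFE2L1 activity, which was not tested. Nfe2l1 itself fell from 110 to 86.4 FPKM (log2 fold change -0.35, limma adjusted p = 9.66e-06) and Nfe2l2 from 74.9 to 53.7 FPKM (-0.47). Their small MAF partners diverged, with Maff at 2.31 and Mafk at 1.66 and Mafg at -0.53. Syvn1 (0.74) and Ddi2 (0.17, limma adjusted p = 0.0422) rose; Ddi2 lost its call when any of 5 of the 6 libraries was left out (all but PBS library 2), and its groups overlapped. Ngly1, the glycanase that activates NFE2L1 (-1.20), Sel1l (-0.65), Keap1 (-0.35), Btrc (-1.65) and Fbxw7 (-1.02) fell, and Fbxw7 lost its call in the span-adjusted fit (-0.07). Btrc, Fbxw7 and Ngly1 span 166, 164 and 62.6 kb. Of 12 NFE2L2 target genes, 6 rose (largest Hmox1 at 1.65, Srxn1 at 1.246 and Nqo1 at 1.07), 3 fell (Slc7a11 at -3.40, Me1 at -0.94 and G6pdx at -0.20) and 3 did not pass (Gclm at 0.00, Osgin1 at 0.11 and Gsta4 at -0.08). Slc7a11 and Me1 span 551 and 115 kb, and in the span-adjusted fit they stood at -1.84 and -0.21.

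Upstream of the proteasome, 5 of 8 ubiquitin and E1 genes rose. Ubb rose by 0.54 and Uba1, the main ubiquitin-activating enzyme, by 0.49 on the log2 scale. Uba6 (-0.32) and Uba3 (-0.23) fell, and Rps27a did not pass (0.11). Of 18 p97 and shuttle factors, 9 rose and 7 fell, near the shares of all tested genes, and 2 did not pass (Vcp, and Ubqln1 at -0.08 with a limma adjusted p of 0.0501). Get4 (0.96), Ufd1 (0.72) and Ubqln4 (0.56) had the largest rises. Rad23b, a shuttle that carries ubiquitinated proteins to the cap, fell (-0.69), as did Faf1 (-2.81, span 287 kb), Ubxn7 (-0.61), Ubxn4 (-0.24), Faf2 (-0.20) and Nsfl1c (-0.17). Ubxn7 (-0.16) and Faf2 (-0.02) lost their calls in the span-adjusted fit.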

How the data were processed

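RNA from 6 libraries of 4T1 cells was enriched for mRNA and sequenced, per the labels' protocols. The authors deposited 1 table of FPKM values with 1 column per library, unpooled; the header names no unit, and FPKM was inferred because values are not whole and their products with exonic length sum to totals within 1.52% of each other. The submitters' processing notes name the tools STAR and featureCounts and the builds GRCm38 and mm10 without saying how each was used; the program behind the values and the annotation were not given in the sources used here. A search for the value of 1 read among values under 0.2 FPKM found no common step (1.77% of ratios at most in a bin of 1%), so depth is unknown. The 701 features without a gene identifier, 0.631% to 0.67% of the summed FPKM, were left out.

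Values were transformed to log2(FPKM + 1), which understates the change of low genes. The 10863 genes that reached 1 FPKM in 3 libraries entered a limma fit (version 3.58.1, R 4.3.3, statmod 1.5.0; robust eBayes with an intensity trend) of nanoparticle against PBS with no block, after the fit was tested on simulated data. Two-sided p-values were adjusted by Benjamini-Hochberg over all tested genes and called under 0.05. Spans and exonic lengths came from GENCODE M21 (GRCm38) and promoters from RefSeq, matched by symbol for 36 members. The members and gene lists were chosen with earlier results of these data known. In each role, values in every library are given for the members with the highest and lowest fold change and for all that fell or did not pass; of other lists, genes that fell, genes that did not pass and the 3 largest rises are named, and any others were chosen after their values were seen. Some genes of these lists are not reported here by name, but are in the counts. Alternatives were pseudocount 0.1, no filter, a filter at 5 FPKM, an adjusted p under 0.01, a limma treat test of 1.5-fold, the replicate number as block, TPM and median-of-ratios scaling, removal of the span and length trend, and leaving out each library.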

Additional observations from a re-analysis of the deposited data

How the results depend on the processing

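The counts of 33 members higher and 7 lower stayed within 1.5 times under every alternative except the test against a 1.5-fold change, which is stricter by construction: 14 members higher and 2 lower, and 21 higher and 10 lower of the genes in the pathway lists. Leaving out 1 library gave 33 higher each time and 6 to 7 lower, with a median of 0.47 to 0.52. The median of the members moved to 0.36 on the TPM scale and to 0.25 in the span-adjusted fit. Among genes called in either fit, signs changed on the TPM scale for Psmd1 (-0.13) and Bag6 (-0.003017). By the same count they changed in the span-adjusted fit for Psma7 (-0.18), Psmc6 (-0.086), Psmd3 (-0.035), Psmd6 (-0.11), Psmg2 (-0.10), Psmg4 (-0.29), Psmb7 (0.085), Akirin2 (-0.22), Bag6 (-0.18), Osgin1 (-0.23), Sem1 (-0.17), Uba6 (0.12), Ubqln2 (-0.000577), Ubxn1 (-0.21) and Zfand5 (-0.21). Genes called in neither fit that changed sign were Sem1, Fbxo7, Akirin2, Zfand5, Rps27a, Gclm and Osgin1 (TPM) and Fbxo7, Rps27a, Gclm and Ubqln1 (span-adjusted). The cause was not tested. With the replicate number as a block, 33 members were called higher and 7 lower and no call on a member changed; of the pathway genes Ubqln1 alone gained a call. Deviations of same-numbered libraries correlated at -0.0141, -0.0428 and 0.0411, so no pairing by number was detected, though these values cannot exclude it. Depth is unknown, so small differences at low values have no counting interval.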
